A study of Mus musculus with 123 samples.

Results

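The mRNAs of the cytosolic ribosomal proteins were followed in mouse liver over the day, on 2 diets and under 3 light schedules. Members were taken by name: every row of the expression table whose symbol begins with Rpl or Rps and a digit, together with Rplp0, Rplp1, Rplp2 and Rpsa, without the Rps6k kinases and without pseudogene symbols marked "-ps". The rule took 87 of the 15398 rows. Of these, 77 encode proteins of the ribosome itself: 31 of the small subunit, 43 of the body of the large subunit and 3 of its stalk (Rplp0, Rplp1 and Rplp2). The other 10 carry a matching name but are paralogs, retrogenes or partner proteins (Rpl22l1, Rpl36al, Rpl37rt, Rpl3l, Rpl7l1, Rps19bp1, Rps23rg1, Rps27l, Rps27rt and Rps4l), and they are described apart from the 77.

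Bulk RNA of whole liver was sequenced from mice fed a high fat diet (HFD, 61 libraries) or a low fat diet (LFD, 62 libraries). Each diet was combined with 3 photoperiods, called Equal light, Long light and Short light, and livers were taken at zeitgeber time (ZT) 0, 4, 8, 12, 16 and 20 h. That makes 6 arms (a diet with a photoperiod, 20 or 21 libraries each) and 36 groups of 3 or 4 libraries. The labels give neither strain, sex nor age, nor the hours of light in a photoperiod, nor the event that defines ZT0, and they name no animals, so the p-values below measure the spread between these samples.

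A ribosome joins a small subunit, which reads the mRNA, to a large subunit, which forms the peptide bonds. Most of its proteins are needed in equal numbers. The mRNAs of most ribosomal proteins start with a C followed by a run of pyrimidines (C or T), the 5′ terminal oligopyrimidine or TOP motif. Through it the growth kinase mTOR and the binding protein LARP1 govern the translation and stability of these mRNAs. In liver, ribosome production is known to follow feeding and the daily cycle.

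Sequences around the annotated start of transcription show how far this motif was present among the measured genes. RefSeq promoters on build GRCm38.p6 were found for 66 of the 87 genes, 57 of them subunit proteins. A run was counted where a C followed by at least 4 more C or T began within 5 bases of the annotated start. It was found in 47.4% of the 57 subunit genes, in 23.8% of 10769 tested genes with a promoter and in 17 of 68 mitochondrial ribosomal protein genes. Runs of 8 or more were found in 35.1%, 5.94% and 2.94% of these sets. A gene was counted where any of its annotated starts held the run. The lines below give 10 bases before and 20 bases after the annotated start, read 5′ to 3′ on the gene's strand, with the pyrimidine run in capitals. The first 6 genes hold a run by this rule. The last 3 are subunit genes of the results below with none that begins within 5 bases of the start. Pyrimidine stretches that begin outside that window stand in the printed bases of all 3.
Rpl27a (chr7:109519185-109519214, plus strand): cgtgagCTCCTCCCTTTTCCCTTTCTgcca
Rpl15 (chr14:18270967-18270996, minus strand): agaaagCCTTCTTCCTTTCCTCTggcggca
Rps18 (chr17:33955646-33955675, minus strand): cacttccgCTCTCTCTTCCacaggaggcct
Rps6 (chr4:86857348-86857377, minus strand): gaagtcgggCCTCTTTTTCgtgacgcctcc
Rplp2 (chr7:141447641-141447670, plus strand): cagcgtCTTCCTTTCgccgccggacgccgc
Rpl12 (chr2:32961702-32961731, plus strand): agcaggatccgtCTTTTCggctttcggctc
Rps13 (chr7:116334171-116334200, minus strand): caaacgtcggtgagtggcgtcacttcctgt
Rpl4 (chr9:64173377-64173406, plus strand): tttcctgtgggagcagccgggtagagagga
Rps12 (chr10:23787190-23787219, minus strand): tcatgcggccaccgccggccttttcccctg
The runs differed in length, from 6 bases in Rpl12 to 20 in Rpl27a. That a gene was counted without a run says only that none begins within 5 bases of an annotated start. Over the whole promoter, from 250 bases before to 50 bases after the start and on both strands, the letters CGGAAG (the core of ETS factor sites) stood in 70.2% of the subunit genes and in 3559 of the 10769 tested genes. AAGATGGC (YY1) stood in 8.77% and 5.01%, GGGCGG (GC box) in 61.4% and 65.3%, CACGTG (E-box) in 10.5% and 11.5%, and TATAAA in 10.5% and 9.61%.

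Depth, recovered from the values, ran from 13.97 to 39.09 M reads per library (median 24.06 M). All 8 hepatocyte markers were high, with Alb at 16.2 log2 CPM (counts scaled to equal library size, on a log2 scale) on average. No marker of the cell types searched was at 0 in all libraries. Some libraries carried RNA of muscle or pancreas: 19 had a mean above 4 log2 CPM for either marker list, 5 from HFD and 14 from LFD. Pancreas acinar markers were lower in HFD in 10 of 11 genes tested, with a summed level of 4.18 to 9.15 log2 CPM in HFD and 3.69 to 11.94 in LFD. Kupffer cell markers were higher in 6 of 10, stellate cell markers in 3 of 7 and endothelial markers in 1 of 7, and 0 of the muscle, lymphocyte and cholangiocyte markers were called. Of 4 erythroid markers, the globins Hba-a2 (-0.24) and Hbb-bt (-0.22) were lower in HFD and Alas2 (0.17) was higher, and of the hepatocyte markers Cyp2e1 was higher (0.41) and Cps1 lower (-0.16). The summed Kupffer level ran from 8.30 to 9.74 log2 CPM in HFD (median 8.89) and from 8.12 to 9.68 in LFD (median 8.66), and the part of these cells in the diet results was not tested. In these bulk samples fewer cells of a type and less RNA per cell cannot be told apart.

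A pair of libraries stood apart in the ribosomal protein mRNAs themselves. The mean of the 77 subunit mRNAs was 5.59 log2 CPM in HFD Equal light ZT20 replicate 1 and 5.88 in HFD Equal light ZT4 replicate 2, against 6.15 or more in every LFD library. The deviation was uneven over the genes in both. Rpl36 was at 3.42 log2 CPM in the former and between 5.80 and 5.90 in the other 3 libraries of its group, and at 3.45 in the latter against 5.63 to 6.01, whereas Rps6 was at 5.73 and 6.08 against 6.09 to 6.42 and 6.15 to 6.30. Several counts and medians of the whole family that involve HFD Equal light are given below with and without this pair. All other values include the pair unless stated, among them those by role, by time, by pyrimidine run and for the partner lists.

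The mRNAs of the family were unequal in level. Per kb of annotated exon, Rplp1, an acidic stalk protein that helps recruit elongation factors, was the most abundant (8.48 log2 CPM per kb), followed by Rpl4 (7.76), Rps15 (7.65) and Rps2 (7.39). The median subunit gene stood at 5.64 log2 CPM per kb. Only Rps10 (0.94), Rpl24 (2.35) and Rpl13a (2.48) of the 77 were under 3. Members share near-identical processed copies across the genome, and the sources used here do not say how reads matching several places were counted, so low levels such as these are uncertain. The lowest member was Rpl3l, the muscle paralog of Rpl3, at -2.10 log2 CPM per kb. All 87 passed the filter of 1 CPM in at least 3 libraries, so every count below is out of the whole family.

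The family was lower on the high fat diet. Of the 87 genes, 78 were lower in HFD and 0 were higher (limma, adjusted p under 0.05), where 12.6% of all 14397 genes tested were lower. The median difference was -0.18 log2 CPM over the 87 genes and -0.004 over all genes, and the estimate was negative for 87 of 87 genes against 51.6% of all genes. For the 77 subunit genes this was a median decrease of 11.8%, with 75 called. Their differences lay within a narrow band, from -0.31 for Rpl12 to -0.07 for Rps2, with the middle 50% of genes between -0.21 and -0.17.

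**Figure D1:**
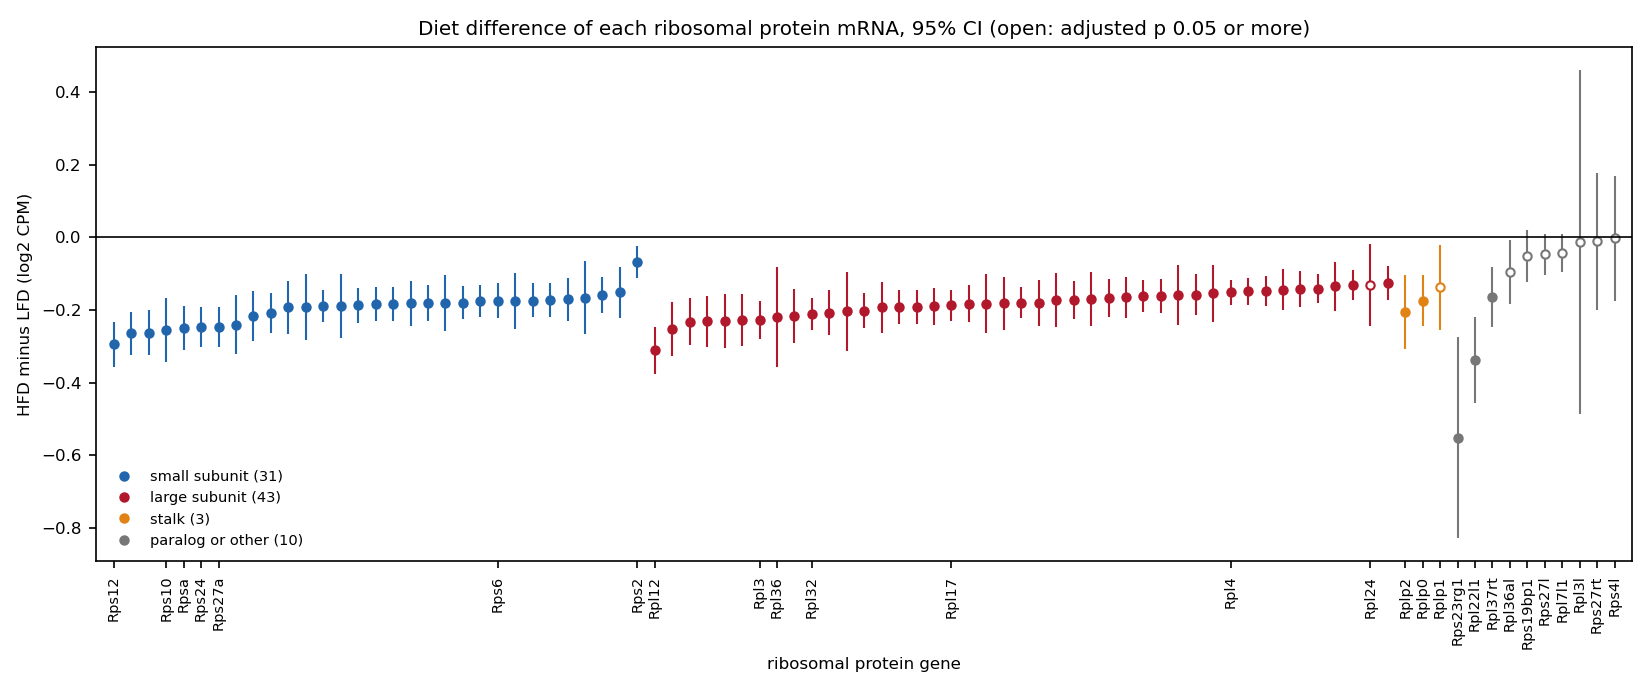
Each point is 1 ribosomal protein gene, placed by its HFD minus LFD difference in log2 CPM with its 95% confidence interval from limma, grouped by role and sorted within it, with names at genes the text describes. Filled points passed an adjusted p of 0.05. All 31 small subunit genes, 42 of 43 large subunit genes, 2 of 3 stalk genes and 3 of the 10 paralogs and other symbols are filled, and all points lie below 0.

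Per library, the mean of the 77 subunit mRNAs was 6.30 ± 0.16 log2 CPM in HFD (SD, n = 61) and 6.49 ± 0.12 in LFD (SD, n = 62). The HFD libraries ran from 5.59 over a median of 6.30 to 6.63, and the LFD libraries from 6.15 over 6.50 to 6.86, so the groups overlapped widely. As a share of all recovered reads, the 87 mRNAs took 0.794 ± 0.073% in HFD and 0.891 ± 0.064% in LFD. CPM is relative to the library, so the share says nothing of the amount of RNA per liver.

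Among the small subunit proteins, 31 of 31 were lower in HFD, with a median of -0.18. Rps12, a protein of the decoding subunit, ran from 5.69 over 6.50 to 7.0 log2 CPM in HFD (lowest, median and highest library) and from 6.30 over 6.80 to 7.21 in LFD. Of the 61 HFD libraries, 58 lay below the LFD median, though the ranges overlapped. The difference was -0.29 (SE 0.031, adjusted p 3.23e-12). Rps24 (-0.25, SE 0.028) and Rps27a, which is made as a fusion with ubiquitin (-0.25, SE 0.028), were among the 8 members with the smallest p. Rpsa, also known as a laminin receptor, stood at 7.53 ± 0.20 log2 CPM in HFD and 7.79 ± 0.16 in LFD (SD, n = 61 and 62), with 59 HFD libraries below the LFD median. Rps6, the protein that S6 kinase phosphorylates, ran from 5.73 over 6.24 to 6.56 log2 CPM in HFD and from 6.03 over 6.44 to 6.70 in LFD, a difference of -0.18 (SE 0.024, adjusted p 1.99e-08). Rps10, measured at 2.15 log2 CPM, was also lower (-0.26, SE 0.045), but its low level is uncertain, as described above. The smallest difference was that of Rps2, at -0.07 (95% interval -0.11 to -0.03, adjusted p 0.0141), which was lower in HFD in 14 of the 18 comparisons matched for photoperiod and time.

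Among the 43 proteins of the large subunit body, 42 were lower in HFD, with a median of -0.18. Rpl12, which lies at the base of the stalk, had the largest difference of the 77 subunit genes. It ran from 5.77 over 6.32 to 6.97 log2 CPM in HFD and from 6.07 over 6.68 to 7.05 in LFD, with 58 of 61 HFD libraries below the LFD median. The difference was -0.31 (SE 0.032, adjusted p 6.68e-13), a decrease of 19.4%, and Rpl12 (ENSMUSG00000038900, GRCm38 chromosome 2, 32961559 to 32965345, plus strand) was lower in 18 of 18 matched comparisons. Rpl32 ran from 6.29 over 6.69 to 7.06 in HFD and from 6.59 over 6.90 to 7.24 in LFD, a difference of -0.21 (SE 0.023). Rpl3, which helps shape the peptidyl transferase centre, differed by -0.23 (SE 0.027). Rpl4 and Rpl17, which line the exit tunnel, differed by -0.15 (SE 0.017) and -0.19 (SE 0.022). Each of these 5 large subunit genes was lower in 18 of 18 matched comparisons. Rpl36 was lower by -0.22 with a larger error (SE 0.069, adjusted p 0.0118). That limma fit included the pair that stood apart, where Rpl36 was at 3.42 and 3.45 log2 CPM. Without replicate 1 of every group its adjusted p was 0.284 and its difference -0.13. Without replicate 2 of every group they were 0.0694 and -0.20. Rpl24 alone, whose low level is uncertain too, was not called (-0.13, 95% interval -0.24 to -0.02, adjusted p 0.077). Its adjusted p was 0.0167 under library weights and 0.0499 with the library number as a covariate.

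The stalk recruits the translation factors, and 2 of its 3 genes were lower in HFD. Rplp0 ran from 6.50 over 7.87 to 8.24 log2 CPM in HFD and from 7.65 over 8.05 to 8.27 in LFD, and differed by -0.17 (SE 0.036, adjusted p 8.46e-05). Rplp2 differed by -0.20 (SE 0.051, adjusted p 0.00112), but without replicate 1 of every group by -0.12 (adjusted p 0.119). Rplp1 ran from 5.17 over 7.47 to 7.87 in HFD and from 6.69 over 7.60 to 7.96 in LFD. Its difference was -0.14 (95% interval -0.26 to -0.02, adjusted p 0.0738), and without the 2 libraries farthest from their groups, HFD Equal light ZT20 replicate 1 and LFD Equal light ZT0 replicate 3, it was -0.12 with an adjusted p of 0.0297. The low end of all 3 HFD ranges lies more than 1 unit below the HFD median.

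The 10 paralogs and other symbols did not share the narrow band of the subunit genes. Rpl22l1, a paralog of Rpl22, was lower in HFD by -0.34 (SE 0.059, adjusted p 4.93e-06), at 4.13 ± 0.36 log2 CPM in HFD and 4.46 ± 0.33 in LFD (SD, n = 61 and 62). Rps23rg1, a retrogene of Rps23, differed by -0.55 (SE 0.139, adjusted p 0.00146) at a low level, and without replicate 1 of every group its adjusted p was 0.0854. Rpl37rt, annotated as a transcribed processed pseudogene, differed by -0.17 (SE 0.042, adjusted p 0.00149), with an adjusted p of 0.0507 without replicate 3 of every group. The other 7 were not called. Rps27l, a paralog of Rps27 known as a p53 target, was as abundant as many subunit genes (6.63 log2 CPM) and differed by -0.05 (95% interval -0.10 to 0.01), with an adjusted p of 0.0352 under library weights. Rpl7l1, a nucleolar protein of ribosome assembly, differed by -0.04 (-0.10 to 0.01) and Rps19bp1, an Rps19 binding protein, by -0.05 (-0.12 to 0.02). Rpl36al gave -0.10 with an adjusted p of 0.1, or 0.0207 under library weights. Rps4l, Rps27rt and Rpl3l gave -0.003, -0.01 and -0.01 with wide intervals, that of Rpl3l reaching from -0.49 to 0.46.

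The HFD mean was the lower one across the day and in each photoperiod, though not always by more than the spread within groups. In all 18 matched pairs of groups the HFD mean of the 77 subunit mRNAs was lower, by between 0.004 (Equal light ZT12) and 0.34 (Short light ZT8), and in 6 pairs no HFD library reached the lowest LFD library. The median SD within a group was 0.10, so at Equal light ZT12 the diets were alike. In Short light ZT8 the 4 HFD libraries ran from 6.29 to 6.52 log2 CPM and the 3 LFD libraries from 6.53 to 6.86. Gene by gene, 30 of the 87 were lower in HFD in all 18 pairs and 75 in at least 15. The share over all genes was not computed for these counts of pairs, so they only describe the members. Averaged over photoperiods, the difference was -0.18, -0.23, -0.17, -0.13, -0.23 and -0.19 log2 CPM at ZT0, 4, 8, 12, 16 and 20. The limma test of diet by time called 0 of the 87 genes, and limma-voom also 0, with a background of 0.0% and 0 members at an unadjusted p under 0.05. Rpl39 had the smallest p (0.118).

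Within single photoperiods the calls were fewer. Under Equal light 58 of 87 were lower (3.35% of all genes), under Long light 32 (1.64%) and under Short light 66 (3.14%), with 0 higher in each. The median differences were -0.19, -0.15 and -0.21. Without the pair of low HFD Equal light libraries the counts were 54, 48 and 75, and the Equal light median was -0.15. The counts came to 9, 6 and 26 when replicate 1 of each group was left out. The Long light count was also 9 once the 19 libraries with muscle or pancreas RNA were left out, 9 of which came from Long light, and 65 when libraries were weighted by their fit to the model. The interaction of diet and photoperiod called 0 of 87 (0.0% of all genes), in limma and in limma-voom alike, with 1 member at an unadjusted p under 0.05. That was Rpl15 (p 0.0252), with diet differences of -0.19 in Equal, -0.07 in Long and -0.18 in Short light. Without the pair that stood apart, 10 members had an unadjusted p under 0.05 and 0 were called. A difference of the diet effect between photoperiods was thus not detected, which does not show that the effects were equal. Over all photoperiods the count of 78 was the same without the 19 libraries and without the pair that stood apart, where the median was -0.17.

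**Figure D2:**
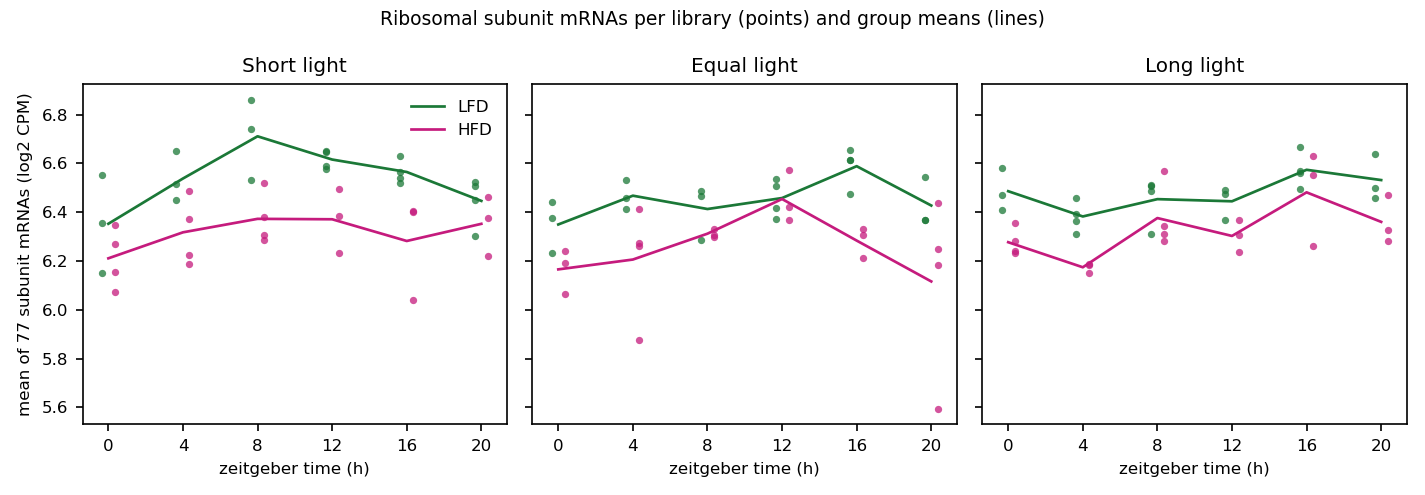
The mean log2 CPM of the 77 subunit mRNAs is plotted for each library (points) against zeitgeber time in hours, with lines through the group means, LFD in green and HFD in pink, for each photoperiod. The LFD line lies above the HFD line at all 18 points, and the lowest points at Equal light ZT4 and ZT20 are the pair of HFD libraries at 5.88 and 5.59.

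Genes counted with and without the pyrimidine run had like differences. Those counted without a run can hold a pyrimidine stretch outside the window, so the comparison does not separate TOP from other mRNAs. Of the 22 members with a run of 8 or more, 22 were lower in HFD (median -0.19), of 9 with a run of 5 to 7, 7 were lower (median -0.16), and of 35 counted without a run, 30 were lower (median -0.18). These counts include paralogs and other symbols. The uncalled genes with a run of 5 to 7 were Rps27l and Rps27rt. Those without a run were Rpl24, Rpl36al, Rpl3l, Rpl7l1 and Rps19bp1, and Rpl24 was the only subunit gene among them. Among all other genes, 11.6% of 619 with a run of 8 or more were lower and 12.6% higher, against 11.9% and 13.4% of 8169 without a run. Rps12 and Rpl4, counted without a run by this rule, and Rpl12, with a run of 6, were all among the 8 members with the smallest p.

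Partners of the ribosome were read from lists of known genes. Fau encodes a ribosomal protein fused to a ubiquitin-like domain, but its name lies outside the rule. It was lower in HFD, with a difference of -0.12 (SE 0.046, adjusted p 0.0348). Of 30 translation factors and other genes known for TOP mRNAs, 20 were lower and 0 higher (median -0.09). These included Rack1, a scaffold bound to the small subunit (-0.22, SE 0.029), Eef1b2 (-0.16, SE 0.021) and Eef1a1, which brings aminoacyl-tRNA to the ribosome (-0.14, SE 0.020). Of 30 genes of ribosome assembly, 9 were lower and 0 higher (median -0.07), among them Npm1 and Ncl of the nucleolus (-0.18 and -0.10) and Rrn3, an initiation factor of RNA polymerase I (-0.20, SE 0.043). Of 31 genes of growth signalling and TOP control, 8 were lower and 0 higher (median -0.05), including Larp4 (-0.17), Rps6kb1, an S6 kinase (-0.12), and Eif4ebp3 (-0.62, SE 0.174), while Mtor (0.07, adjusted p 0.176) and Larp1 (-0.05, adjusted p 0.138) were not called. Of 77 mitochondrial ribosomal protein genes, 1 was lower and 7 were higher (median 0.008), and of 31 proteasome genes 0 were lower and 7 higher (median 0.03). Over all 14397 genes tested, 1817 (12.6%) were lower and 1859 higher, with a median of -0.004. Among the lists of this paragraph, lower values were thus found for cytosolic ribosomal proteins and, at smaller medians, their partners. Most of the genes lower in HFD lie outside these lists. Of 19 tested pseudogene rows of ribosomal proteins, 9 were lower (median -0.19); reads of these copies and of their parent genes may not be fully separable.

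**Figure D3:**
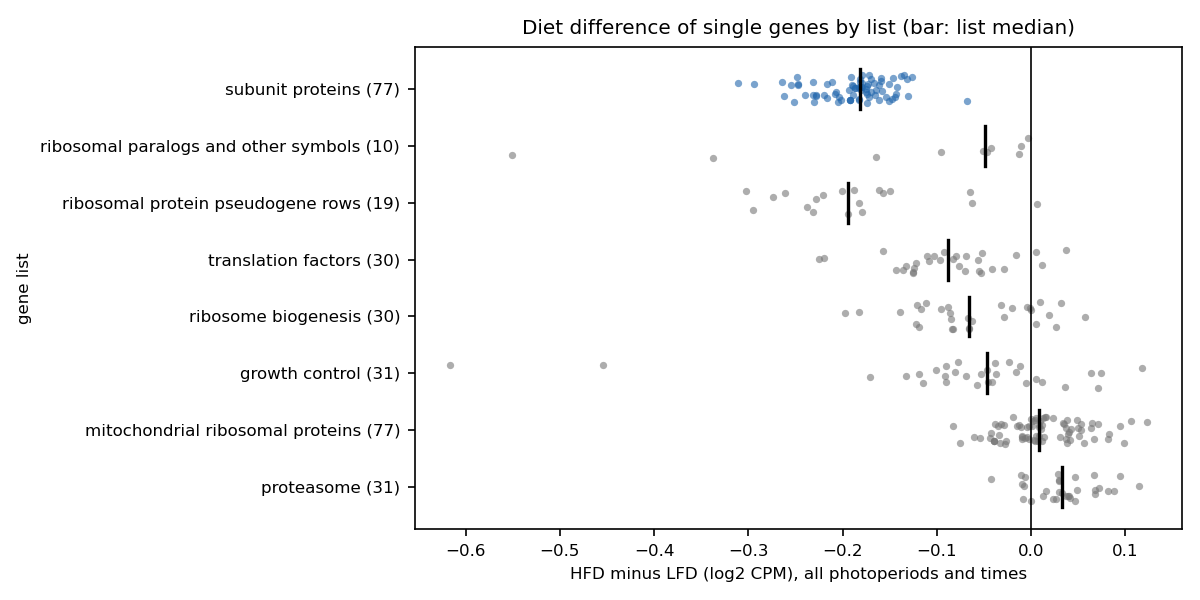
Each point is 1 gene, placed by its HFD minus LFD difference in log2 CPM, with the 77 subunit genes in blue and other lists in grey, and black bars at list medians. The subunit genes lie between -0.31 and -0.07, and the mitochondrial ribosomal proteins lie around 0.

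The family also shared a weak daily wave. A 24 h cosine common to the 6 arms was called for 76 of 87 genes, 69 of them among the 77 subunit genes, where 50.5% of all genes were called. As averaged over the arms, the waves were small. The median amplitude (from the mean to the peak) was 0.08 log2 CPM over the 87 genes and 0.09 over all genes, and the subunit genes ranged from 0.05 to 0.15, which is a peak-to-trough ratio of 1.07 to 1.23. Their peaks in this common wave were close in time: 69 of 77 fell between ZT11 and ZT14, a window that held 12.4% of all rhythmic genes. Between ZT10 and ZT16 there were 75 of the 77, where 22.5% of all rhythmic genes peaked, and the median was ZT12.67. These counts of the 77 include genes whose wave was not called, unlike the shares of all rhythmic genes. All 69 called subunit genes peaked between ZT10 and ZT16. The genes share libraries, so their peaks are not independent. This wave averages the cosine and sine terms of the 6 arms, whose own mean subunit peaks ran from ZT10.25 to ZT17.62. Averaging arms with different peaks lowers the amplitude and places the peak between theirs. Averaged over photoperiods, the subunit mean in HFD was 6.22, 6.23, 6.35, 6.38, 6.35 and 6.28 log2 CPM at ZT0, 4, 8, 12, 16 and 20, and in LFD 6.40, 6.46, 6.53, 6.51, 6.58 and 6.47. Both diets were lowest at ZT0. Without replicate 3 of every group 46 of 87 were called. Without the pair of low HFD Equal light libraries 77 were called, and 66 of the 77 subunit genes peaked between ZT11 and ZT14.

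Rps13, a small subunit protein, gave the smallest p of this wave (amplitude 0.11, peak ZT13.04, adjusted p 2.65e-07). Its HFD means were 5.73, 5.72, 5.87, 5.88, 5.87 and 5.79 log2 CPM over the 6 times and its LFD means 5.86, 5.91, 6.07, 6.06, 6.12 and 5.98. Rpl3 peaked earlier, at ZT10.42 (amplitude 0.11, adjusted p 3.73e-06). Among the called members the largest amplitudes were those of Rps23rg1 (0.39, peak ZT7.15), Rps4l (0.20, ZT8.85), Rpl36 (0.15, ZT12.49), Rpl22l1 (0.15, ZT9.05), Rpl24 (0.14, ZT12.71), Rplp2 (0.13, ZT11.86), Rpl37rt (0.13, ZT11.53) and Rpl13 (0.12, ZT11.70). Of these 8, 4 are paralogs or other symbols, and 3 of those peaked before ZT10. The amplitude of Rpl36 includes the pair of libraries that stood apart. The smallest called amplitudes were those of Rpl7 (0.05), Rpl21 (0.05), Rpl9 (0.05) and Rps15a (0.05). Of these 12 genes, 11 lost the call when at least 1 replicate number was left out (adjusted p 0.0536 to 0.365), and Rpl13 did not. The assembly factor Rpl7l1 peaked at ZT17.70 (adjusted p 7.88e-05) and Rps19bp1 at ZT16.58 (adjusted p 0.00432), later than 77 and 76 of the 77 subunit genes. Among the 11 members not called were Rpl13a, Rpl22, Rpl23a, Rpl36al, Rpl3l, Rplp1, Rps10, Rps27, Rps27rt and Rps29. Of the partner lists, 20 of 30 translation factors had a shared wave, 15 of them peaking between ZT10 and ZT16, a window that held 22.5% of all rhythmic genes. Of 17 rhythmic genes of ribosome assembly 11 peaked there, and of 52 rhythmic mitochondrial ribosomal protein genes 32. Of 22 rhythmic genes of growth signalling and TOP control 3 did, and of 24 rhythmic proteasome genes 4. The window was thus shared by some of these lists and not by others.

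**Figure D4:**
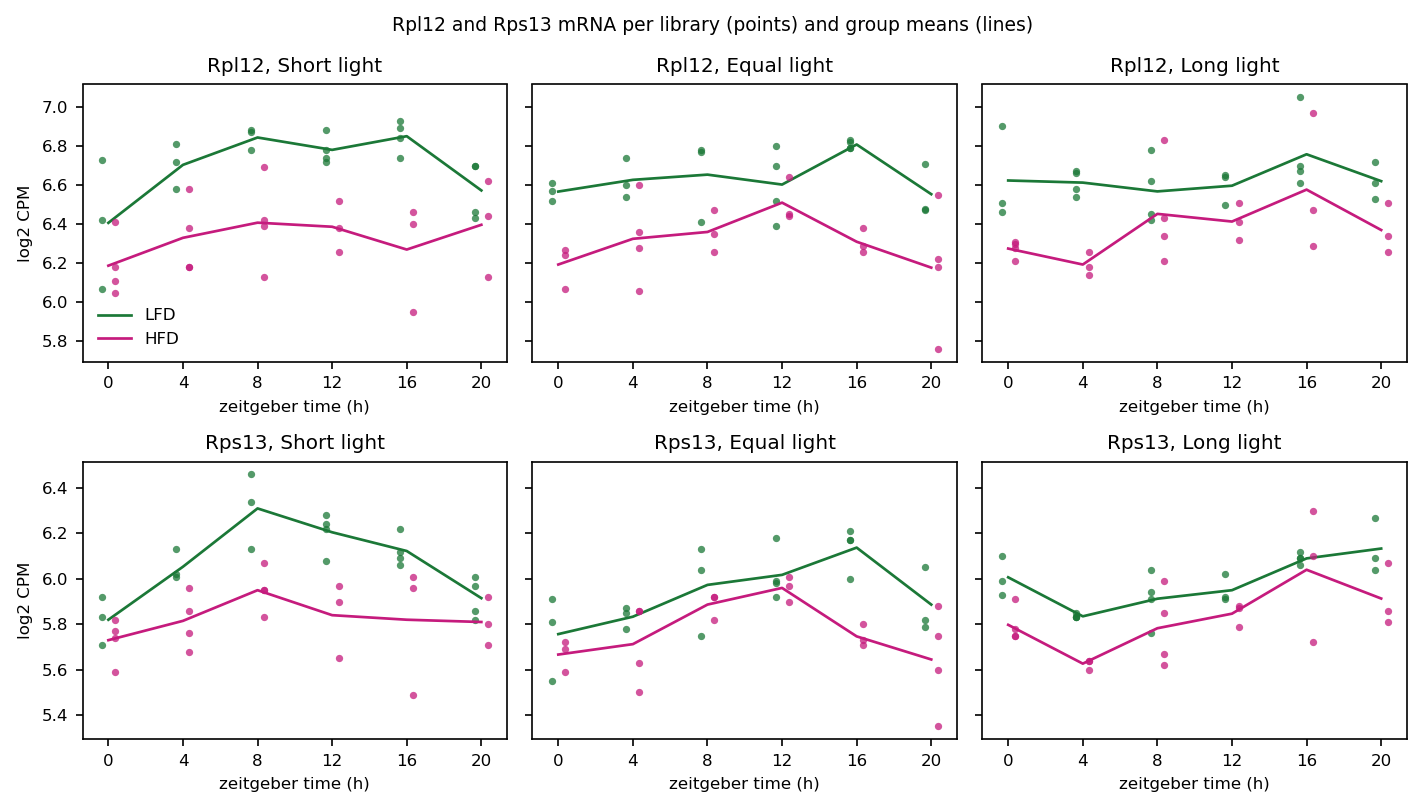
Log2 CPM of Rpl12 (upper row) and Rps13 (lower row) is plotted for each library against zeitgeber time in hours, with lines through the group means, LFD in green and HFD in pink, for each photoperiod. HFD lies below LFD at every time for both genes, and the highest LFD mean of Rps13 moves from ZT8 in Short light to ZT16 in Equal light and ZT20 in Long light.

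Arm by arm, at 20 or 21 libraries each, most members did not pass. On LFD, 2 of 87 were called under Equal light (20.9% of all genes), 5 under Long light (23.6%) and 34 under Short light (27.1%). On HFD, 29 were called under Equal light (16.5%), 12 under Long light (21.8%) and 0 under Short light (14.1%), with 0 by limma-voom too and 2 members of HFD Short light at an unadjusted p under 0.05. The count was thus below the background in LFD Equal, LFD Long, HFD Long and HFD Short light and above it in LFD Short and HFD Equal light. All arms share 1 estimate of the spread, so a library of one arm bears on the calls of the others. Without the pair of HFD Equal light libraries that stood apart, 2 members were called in HFD Equal light and 63 in LFD Short light. Without the 19 libraries with muscle or pancreas RNA, LFD Short light had 10. The median amplitude of the subunit genes was 0.15 in LFD Short light and 0.16 in HFD Equal light and between 0.06 and 0.11 in the other 4 arms. Without the pair that stood apart it was 0.10 in HFD Equal light.

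The time of the peak differed between photoperiods. The mean fitted peak of the 77 subunit genes was ZT10.25 in Short light, ZT14.96 in Equal light and ZT17.62 in Long light on LFD, and ZT10.66, ZT11.18 and ZT15.5 on HFD. Without the pair that stood apart the HFD Equal light peak was ZT11.42. In both diets 75 of 77 subunit genes peaked later in Long than in Short light, by a median of 7.30 h on LFD and 4.95 h on HFD. Genes called rhythmic in both photoperiods moved the same way: 98% of 1946 such genes were later in Long light on LFD, by a median of 7.99 h, and 99.7% of 1390 on HFD, by 8.02 h. Equal light lay later than Short light in 75 of 77 subunit genes on LFD (median 4.48 h) and in 44 of 77 on HFD (median 0.23 h). Genes called rhythmic in both were later in Equal light in 96.2% of 1727 on LFD (median 3.09 h) and in 99.5% of 990 on HFD (median 3.54 h). The difference between the subunit genes and those genes was not tested. Without the pair that stood apart it was 50 of 77 on HFD, with a median of 0.52 h. Most of these peaks belong to waves that were not called, and the genes share libraries, so the counts describe and do not test.

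**Figure D5:**
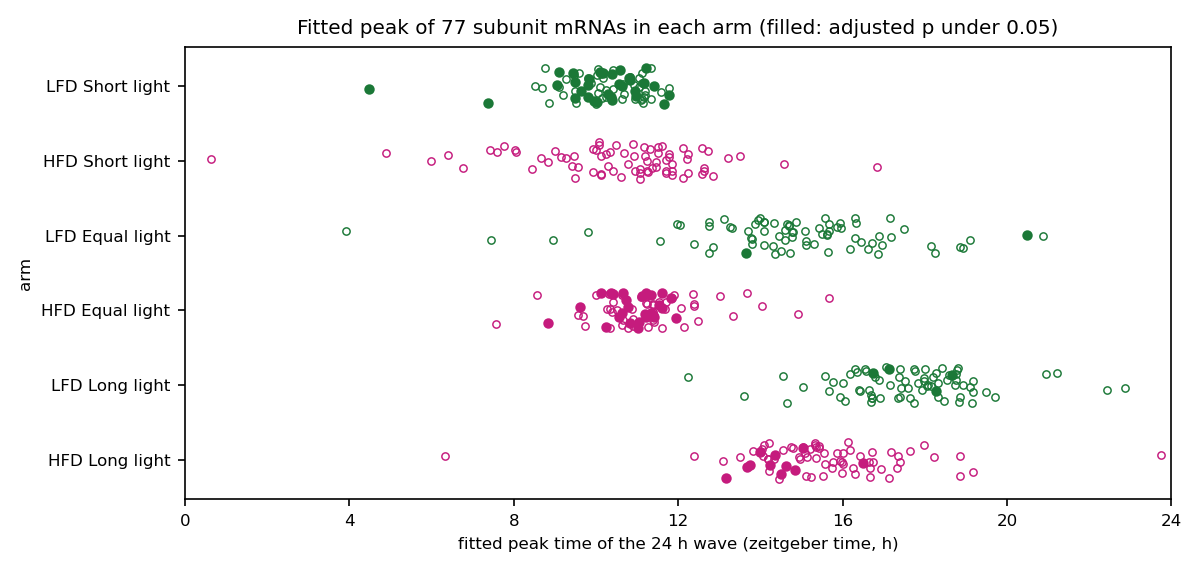
Each point is the fitted peak time, in zeitgeber hours, of 1 of the 77 subunit mRNAs in 1 arm, with vertical scatter added to separate points, and filled where the arm's wave passed an adjusted p of 0.05. The Short light arms lie mostly between 8 and 13 h, and the Long light arms mostly between 13 and 20 h.

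The direct test of a different wave between photoperiods called 24 of 87 members, 22 of them subunit genes, where 49.1% of all genes were called. The share of the family, 27.6%, was below the background. Without the 2 HFD Equal light libraries that stood apart it was 40 members. The smallest p was that of Rps13 (adjusted p 5.49e-06). On LFD, Rps13 had an amplitude of 0.22 with a peak at ZT10.39 in Short light, 0.16 at ZT13.64 in Equal light and 0.14 at ZT18.27 in Long light. On HFD the amplitudes were 0.08, 0.16 and 0.17, with peaks at ZT9.92, ZT10.55 and ZT16.5. At LFD Short light ZT8 its 3 libraries were at 6.13, 6.34 and 6.46 log2 CPM and at ZT0 at 5.71, 5.83 and 5.92, without overlap, whereas in LFD Long light the lowest group was ZT4, with 4 libraries between 5.83 and 5.85. Next came Rps19bp1 (adjusted p 0.000305), Rpl7l1 (0.000338), Rpl17 (0.00064), Rpl22 (0.00104) and Rpl14 (0.00205). Rpl22 had earlier fitted peaks, at ZT4.49 in LFD Short light (adjusted p 0.0124) and ZT12.25 in LFD Long light (adjusted p 0.0741).

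No difference of the wave between diets was detectable. That limma test called 0 of 87 members, and limma-voom also 0, with 0 at an unadjusted p under 0.05, and 0.00695% of all genes. Rpl37rt had the smallest p, 0.141. The median size of the difference in the wave was 0.03 log2 CPM over the 87 genes. The diets thus differed in the level of these mRNAs, and a difference in their wave averaged over photoperiods was not detected. Diet differences that run opposite ways between photoperiods can cancel in that average. In Short light the median subunit amplitude was 0.149 on LFD and 0.065 on HFD. It was 0.075 and 0.156 in Equal light, and 0.085 and 0.106 in Long light. Without the pair that stood apart the HFD Equal light value was 0.103. Whether the diet difference in the wave varied with photoperiod was not tested.

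Photoperiod did not shift the mean level of any member past the threshold. In limma, and likewise in limma-voom, Long against Short light called 0 of 87 (0.0% of all genes), with 0 members at an unadjusted p under 0.05. Long against Equal light called 0 (0.0278%), with 19 at an unadjusted p under 0.05 where 14.6% of all genes were, led by Rpl10a, 0.12 higher in Long light (p 0.00437, adjusted p 0.195). Short against Equal light called 0 (0.00695%), with 40 at an unadjusted p under 0.05 where 16.6% of all genes were, led by Rps28, 0.18 higher in Short light (p 0.000255, adjusted p 0.0855). The median differences over the 87 genes were -0.02, 0.04 and 0.07. Without the pair of low HFD Equal light libraries the counts at an unadjusted p under 0.05 were 0, 9 and 25, the medians -0.02, 0.02 and 0.04, and 0 members were called.

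Within a group, the subunit mRNAs of a library tended to move as 1 block. In 16 libraries at least 70 of the 77 lay below their group mean, and in 20 at most 7 did. The share over all genes was not computed for these counts. They describe the subunit genes and do not show that the pattern is particular to them. In HFD Long light ZT16 replicate 3, 77 of 77 were below the mean of the group, by 0.22 log2 CPM on average. In HFD Short light ZT16 replicate 1, 76 of 77 were below, by 0.24. The pair of lowest libraries differed from these: in HFD Equal light ZT20 replicate 1, 64 of 77 were below at an average of 0.52, and in HFD Equal light ZT4 replicate 2, 57 of 77 at 0.33. The median SD of the subunit mean within a group was 0.10 log2 CPM. This SD is less than the distance between the diets (6.30 against 6.49) and more than 0.08, the median fitted amplitude of the shared wave. Which property of a library moved with it was not tested.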

How the data were processed

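The authors deposited 1 table of log2 CPM values for 15398 genes in the liver libraries. The submitters' processing notes name STAR, featureCounts, Subread 1.6.2 and build mm10 (GRCm38). Options and normalization are not given in the sources used. Per the labels' protocols, libraries were poly-A selected, stranded and read as pairs. The lowest value, -3.6124 log2 CPM (0.08176 CPM), is shared by all libraries. With it subtracted, values fell in equal steps, and 99.43% to 99.73% of a library's values came out as whole reads (tolerance 0.05 read).

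The 14397 genes that reached 1 CPM in 3 or more libraries were fitted on the deposited log2 CPM values with limma 3.58.1 in R 4.3.3, with a variance trend, over all libraries. Levels used 1 mean per group, with groups weighted equally in each contrast. Waves used 24 h cosine and sine terms for each arm. Benjamini-Hochberg adjustment ran over the 14397 genes, with a threshold of 0.05. Intervals are at the 95% level. This was the fit set out for log values; limma-voom on the recovered reads was an alternative. The fits were tested on simulated data in which each gene varied independently. That test does not bear on counts of members that move together within a library. Near the floor, log2 differences are too small.

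Positions come from GENCODE mouse release 21, which held 15384 of the 15398 identifiers, and start sequences from RefSeq on GRCm38.p6. Groups come from the sample titles; replicate numbers only name samples. Named genes follow a rule: members with a special role, all paralogs, the 8 called members with the smallest p between diets, the 8 largest and 4 smallest called amplitudes, the highest and the lowest level per length, and up to 6 members per further test (the single smallest p where none was called). Rps10, Rpl24, Rpl13a, Rps15, Rps2, the genes with long pyrimidine runs (Rpl27a, Rpl15, Rps18) and the libraries described singly were added after their values were seen. Some genes that the rule names are not reported here. The members and lists were chosen with earlier results of these data known. Alternatives changed the filter, the pseudocount (log2(CPM + 1)), the scaling, a covariate for the library number, library weights and the libraries used.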

Additional observations from a re-analysis of the deposited data

Results flagged for a closer look

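Among 15 groups of 4 libraries, 1 held a library whose gap to the others was large for the range of its group. In LFD Long light at ZT8, replicate 2 had a subunit mean of 6.31 log2 CPM, while the other 3 libraries lay between 6.49 and 6.51. There 77 of 77 subunit mRNAs were below the group mean, and the share over all genes was not computed. Chance flags about 1 in 20 groups.

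The wave of 24 members differed between photoperiods by the direct test of that difference. The adjusted p was 5.49e-06 for Rps13, 0.000305 for Rps19bp1, 0.000338 for Rpl7l1, 0.00064 for Rpl17, 0.00104 for Rpl22 and 0.00205 for Rpl14. Over all genes tested 49.1% showed such a difference.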

How the results depend on the processing

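Over 13 alternatives, including replicate numbers left out in turn, the count of members lower in HFD stayed between 70 and 82, with a median difference between -0.20 and -0.14. Counts within a photoperiod or an arm moved more. With 1 replicate number left out, the counts ran from 9 to 55 (diet, Equal light), 6 to 26 (Long light), 26 to 57 (Short light), 46 to 75 (shared wave) and 4 to 28 (wave between photoperiods). For the arms they ran from 0 to 2 (LFD Equal), 0 to 5 (LFD Long), 5 to 37 (LFD Short), 1 to 40 (HFD Equal), 2 to 6 (HFD Long) and 0 to 1 (HFD Short). Once the 19 libraries with muscle or pancreas RNA were left out, the diet count in Long light was 9, and the wave counts were 0 (LFD Equal), 10 (LFD Short) and 4 (HFD Long). With library weights the diet count in Long light was 65, and the wave counts were 8 (HFD Equal), 39 (HFD Long) and 1 (HFD Short). With the library number as a covariate the wave counts were 8 (LFD Long) and 7 (HFD Long). With a 12 h harmonic they were 2 (LFD Long), 19 (LFD Short), 6 (HFD Equal) and 4 (HFD Long).

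The remaining pair of settings was chosen after seeing the data. Without the 2 libraries farthest from their groups the wave counts were 1 (LFD Equal), 8 (LFD Long), 57 (LFD Short) and 12 (HFD Equal). Without the 2 lowest in ribosomal protein mRNA they were 7, 9, 63 and 2, with 19 in HFD Long light and 40 for the wave between photoperiods. Where a cause is not plain from the libraries removed, it was not tested. Of 759 values of single named genes recomputed, 0 changed sign, 41 no longer passed the threshold and 10 newly passed it. No paired analysis was possible because the replicate numbers were given in accession order and so pair no samples. Depth, 13.97 to 39.09 M reads, limits the low members Rpl3l and Rps27rt most.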
